A study of Homo sapiens with 6 samples.

Results

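Long intergenic noncoding RNAs named LINC and a number were followed after knockdown of SND1 in SKOV3, an established line from a human ovarian carcinoma. Members were chosen by their own signal on these arrays: 89 of 542 measured LINC genes, among 22466 genes in all, had a mean log2 value above 5.0 in the vector control arrays, in the knockdown arrays or in both. The brightest probe set stood for each gene. Of the 89, 78 were above 5.0 in both groups, 6 in the controls alone and 5 in the knockdown cells alone. The study compared 3 arrays of a stable line carrying the empty hairpin vector (pLKO-Vector) with 3 arrays of a stable line carrying 1 hairpin against SND1 (shSND1-#2). Both lines were untreated and grew in McCoy's 5A medium with 10% fetal bovine serum. Each group is 1 stable line, so the hairpin and the line cannot be told apart. For 1 knockdown array the name holds an extra number that the labels do not explain. Nothing in the labels says that the arrays of a group came from separate cultures, so the p-values cover the spread among these arrays alone, and that spread may be technical.

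Long intergenic noncoding RNAs are transcripts made by RNA polymerase II from DNA between protein-coding genes, mostly capped, often spliced and usually less abundant than messenger RNAs. A few are known to bind chromatin regulators, microRNAs or proteins, and some encode short peptides, but the work of most is unknown. Their names are a register of loci and carry no function. In nuclei, many such transcripts are trimmed or removed by the RNA exosome and its adaptors. SND1, which has nuclease-like repeats and a tudor domain, takes part in splicing, transcription and RNA decay.

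The label was checked against current RefSeq gene records. Of the 89 members, 83 had a long noncoding RNA record and 79 had one under a LINC name. LINC00948 is now MRLN, which encodes the muscle micropeptide myoregulin, LINC00083 is now CLEC20A, and LINC00444 is listed as an older name of SUCLA2. LINC00266-1, LINC00266-3 and LINC00266-4P are transcribed pseudogenes of SEPTIN14. By position, 11 of the 89 overlapped the span of a protein-coding gene other than their own record and 78 did not. LINC01002 is among the 11 through LOC genes alone, and whether these lie on alternate contigs was not tested. The 78 include LINC00948 and LINC00444, whose own records are those of protein-coding genes.

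SND1 was lower in every knockdown array. Its log2 signal was 8.83, 8.60 and 8.80 in the controls and 5.88, 5.70 and 5.99 after knockdown. The difference was -2.89 ± 0.09 (SE, limma adjusted p = 1.3e-06), at least 5.51-fold lower, on a probe set that is also annotated to SND1-IT1. Across genes, which are not independent replicates, correlations were 0.9981 to 0.9987 within a group and 0.9844 to 0.9861 between groups. Of 8 measured markers of the ovarian carcinoma line 7 were above the background range in at least 1 group (KRT8, KRT18, KRT7, CD24, MUC16, PAX8 and MSLN), while WT1 was at 3.92 in controls and 3.76 after knockdown. Among them CD24 (-2.02), MUC16 (-2.001), KRT8 (-1.39) and KRT18 (-0.52) fell, MSLN (0.73) and KRT7 (0.23) rose, and their part in the members' differences was not tested. None of 12 markers of leukocytes, endothelium, liver, red cells or fibroblasts was above it, with means up to 4.76 for COL1A1. COL1A1 (-0.44) and COL1A2 (-0.18) passed the test within the background range, and their part in the results was not tested. In these bulk samples, fewer cells of a type and less RNA per cell cannot be told apart.

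Of the 78 members above 5.0 in both groups, 24 rose and 11 fell after knockdown, and 43 did not pass the threshold. The threshold was an adjusted p under 0.05 in limma over all 22466 genes, at which 31.9% of all genes were called, 15.9% higher and 16.1% lower. Among genes other than LINC that were above 5.0 in both groups, 52.2% were called, 27.4% higher and 24.8% lower. The members' 44.87% called was near that background, so the share of changing LINC genes is no result about them. Values of the 2 groups did not overlap for 44 of the 78, against 43.6% of all genes and 65.3% of genes other than LINC at that level. Since the level rule used these same arrays, the counts are a description.

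Over all 89 members the median log2 difference (knockdown minus control) was 0.095, with quartiles of -0.175 and 0.346. The same median was 0.003 over all genes and 0.009 over the 11557 genes other than LINC above 5.0 in either group, whose quartiles were -0.226 and 0.243. Within a group, the members' median SD was 0.089 in controls and 0.130 after knockdown. The median level of the members on each array overlapped between groups. It was 6.37, 6.49 and 6.25 in controls and 6.44, 6.29 and 6.33 after knockdown, so no shift of the members is read from their median difference. In all, 28 of the 89 were called higher and 16 lower, beside 53.6% called, 27.5% higher and 26.1% lower, among genes other than LINC above 5.0 in either group. Those counts include 4 higher and 5 lower members that were above 5.0 in 1 group alone, whose direction the choice of members fixed, so nothing is read from them. No overlap between groups was seen for 53 of the 89, 33 of them higher and 20 lower, beside 66.3% of those genes.

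**Figure D1:**
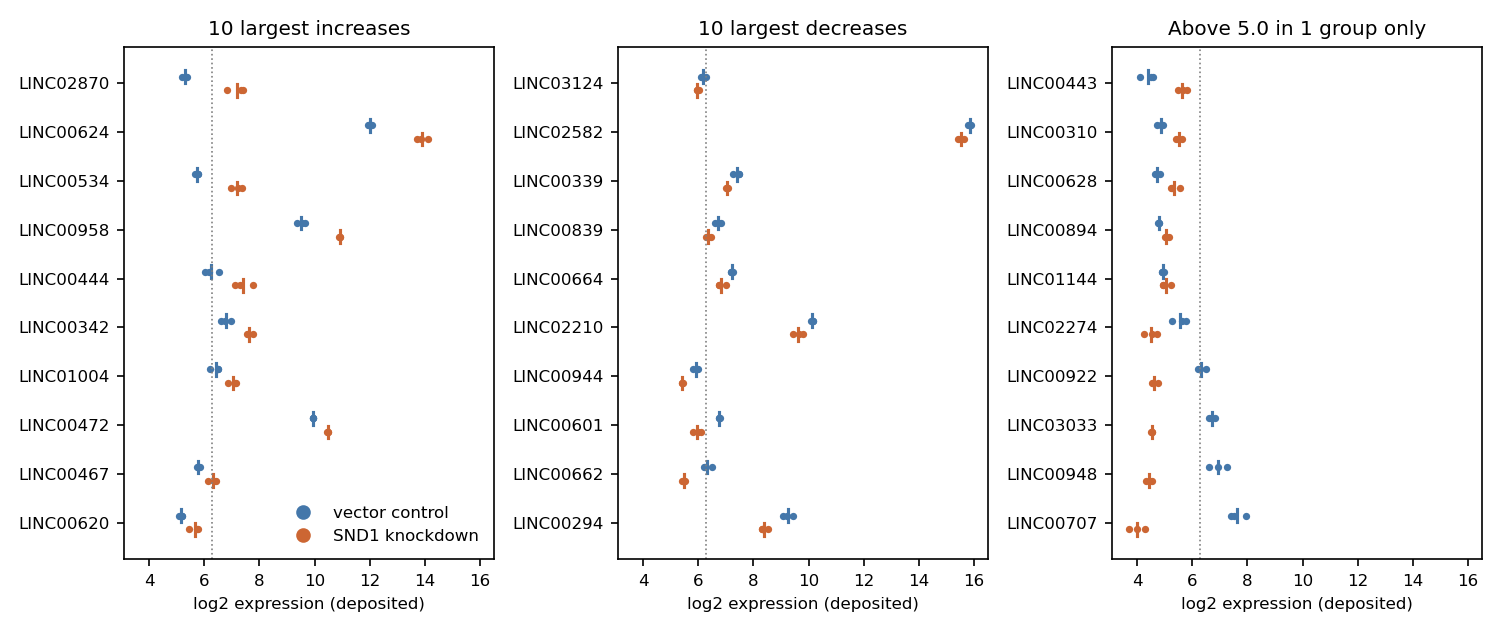
Log2 signal of the named members on each of the 3 vector control and 3 SND1 knockdown arrays, as deposited. LINC00624 ran from 11.95 to 12.09 in controls and from 13.71 to 14.11 after knockdown, and LINC00707 from 7.41 to 7.96 and from 3.71 to 4.27. Points are arrays, short bars are group means of 3 arrays, and the dotted line is the highest background mean, 6.28.

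Signal over background set which differences could be given as folds. The means of 23 background control probe sets ran from 2.38 to 6.28, with a median of 3.11. The limit used was the highest of them, 6.28, so it is a strict one. A gene whose dimmer group was at or below that level has a lower bound for its fold, the brighter mean set against 6.28. A gene with both groups there has no fold, only its log2 difference, and is described as within the background range. Both groups were over 6.28 for 40 members (17 called higher, 6 lower, 57.5% in all), 1 group for 12, and neither for 37. Of those 37, 30 were above 5.0 in both groups, with 2 called higher and 3 lower (16.67%). Over all genes 31.9% were called. Other genes were not split at 6.28, so nothing is read from these counts. At the edge of the rule, LINC01547 had 5.01 in its higher group, LINC01144 5.03 and LINC00894 5.06, while LINC02714 at 4.93, LINC00618 at 4.91 and LINC00381 at 4.86 were left out. The 453 LINC genes at or below 5.0 in both groups included 14 called higher and 14 lower (6.18%), with log2 differences from -0.51 to 0.42.

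**Figure D2:**
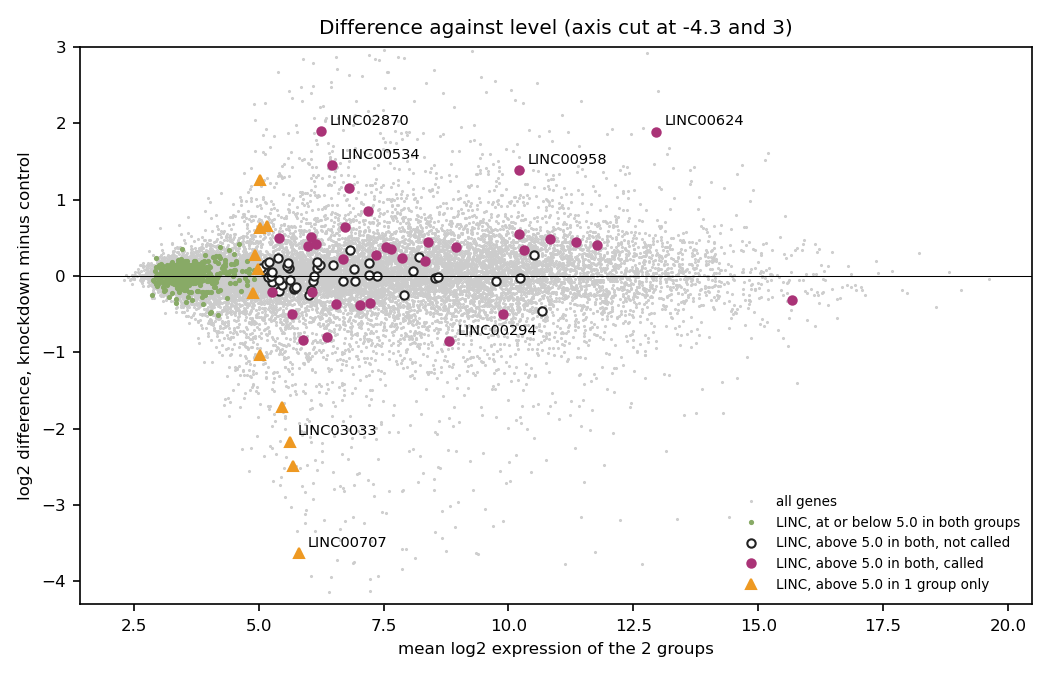
Log2 difference (knockdown minus control) against the mean log2 expression of the 2 groups, for members (marked by level and call) over all genes in grey, of which those past the vertical axis are not drawn. Members spanned -3.63 (LINC00707) to 1.90 (LINC02870).

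The largest increases among members above 5.0 in both groups were in LINC02870 and LINC00624. LINC02870 read 5.38, 5.32 and 5.18 in controls and 7.35, 7.41 and 6.82 after knockdown. All 3 knockdown arrays were above all 3 controls, and the difference of 1.90 ± 0.15 (SE, limma adjusted p = 8.7e-05) made it at least 1.88-fold higher. LINC00624, which has been studied in breast cancer for its binding to the RNA editing enzyme ADAR, read 12.09, 11.98 and 11.95 in controls and 13.71, 13.87 and 14.11 after knockdown. It rose 3.71-fold (1.89 ± 0.10, SE, limma adjusted p = 1.3e-05), again with no overlap.

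LINC00958, also called BLACAT2 and known from bladder carcinoma, rose 2.62-fold. Its 3 controls read 9.66, 9.56 and 9.34, and its 3 knockdown arrays lay close together at 10.91, 10.89 and 10.93 (1.39 ± 0.08, SE, limma adjusted p = 1.9e-05). LINC00534 had 5.68, 5.78 and 5.76 in controls against 6.98, 7.24 and 7.37, a rise of 1.46 ± 0.10 and at least 1.88-fold (limma adjusted p = 3.9e-05). No array of 1 group reached the other for either RNA.

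LINC00444 read 6.18, 6.53 and 6.01 in controls and 7.12, 7.31 and 7.75 after knockdown. Its difference of 1.16 ± 0.19 (SE, limma adjusted p = 0.0026) was at least 2.16-fold, and its replicates were the more scattered ones, with an SD of 0.26 in controls and 0.32 after knockdown. SUCLA2, the succinyl-CoA ligase gene for which RefSeq lists LINC00444 as an older name, has its own probe set and rose by less, 0.43 ± 0.05 (SE, limma adjusted p = 0.00056).

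Smaller increases were measured in 5 further named members. LINC00342 rose 1.80-fold, from 6.60, 6.96 and 6.75 to 7.75, 7.58 and 7.53 (limma adjusted p = 0.00061). LINC01004 rose 1.56-fold, from 6.505, 6.49 and 6.22 to 6.87, 7.15 and 7.12 (limma adjusted p = 0.0029). In both, the lowest knockdown array was above the highest control. LINC00472, known in breast cancer for lower levels in aggressive tumours, had the tightest replicates of the named increases: 9.93, 9.95 and 9.93 in controls and 10.45, 10.50 and 10.48 after knockdown. It rose 1.46-fold (0.54 ± 0.04, SE, limma adjusted p = 7.7e-05).

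LINC00467, a transcript reported to encode a peptide that binds ATP synthase, had a control mean within the background range and a knockdown mean just above it. It read 5.85, 5.72 and 5.78 in controls and 6.14, 6.42 and 6.33 after knockdown, at least 1.01-fold higher (0.51 ± 0.08, SE, limma adjusted p = 0.002). LINC00620 stayed within the background range at 5.07, 5.20 and 5.17 against 5.78, 5.43 and 5.74 (0.50 ± 0.10, SE, limma adjusted p = 0.0066). Outside the rule for named genes, a further 9 members above 5.0 in both groups were called higher, by 0.20 in LINC01881 to 0.44 in LINC02864. One of them, LINC00893, is the divergent transcript of EOLA1 and read 5.75, 5.77 and 5.84 in controls against 6.20, 6.17 and 6.16 (0.39 ± 0.05, SE, limma adjusted p = 0.00061), within the background range.

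The largest decreases among members above 5.0 in both groups were smaller than the largest increases, but the choice by level shaped this. Members that fell to 5.0 or below after knockdown are not in that set. Over all 89, 6 members differed by at least 1 log2 unit upward and 5 downward, so no asymmetry is read from it. LINC00294 fell 1.81-fold, from 9.08, 9.20 and 9.43 in controls to 8.31, 8.53 and 8.30 (-0.85 ± 0.10, SE, limma adjusted p = 0.00069). LINC00601 read 6.76, 6.77 and 6.75 in controls, nearly the same value on every array, and 5.79, 5.99 and 6.10 after knockdown. It was at least 1.39-fold lower (-0.80 ± 0.08, SE, limma adjusted p = 0.00023).

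LINC00662, an RNA studied in several carcinomas, fell by 0.84 on the log2 scale. Its arrays read 6.19, 6.48 and 6.25 in controls and 5.41, 5.47 and 5.53 after knockdown, at least 1.02-fold lower (limma adjusted p = 0.00023). LINC00944 had 6.00, 5.95 and 5.81 against 5.40, 5.43 and 5.41, with all arrays within the background range (-0.50 ± 0.06, SE, limma adjusted p = 0.00054). The groups did not overlap in either gene.

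LINC02582 fell by 0.32 ± 0.07 (SE, limma adjusted p = 0.011), 1.25-fold, at a high signal: 15.78, 15.85 and 15.89 in controls and 15.65, 15.42 and 15.50 after knockdown. LINC00664 fell 1.30-fold from a mean of 7.21 to 6.83, LINC00839 1.29-fold from 6.73 to 6.37, and LINC00339 1.28-fold from 7.40 to 7.04. LINC00339 is known as a neighbour and regulator of CDC42, the GTPase of actin assembly, whose difference here was 0.00 ± 0.04 (SE, limma adjusted p = 0.96). LINC03124, with a difference of -0.21 ± 0.06 (SE, limma adjusted p = 0.036), was within the background range. Its call was lost without any 1 of 5 of the 6 arrays, all but the first control, at adjusted p of 0.0508 to 0.0983. The remaining member called lower, LINC02693, differed by -0.21 at means of 5.36 and 5.15.

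LINC02210, which lies beside the corticotropin-releasing hormone receptor gene CRHR1, had 3 probe sets that did not move together. The brightest fell 1.42-fold, from 10.17, 10.15 and 10.07 to 9.44, 9.81 and 9.63 (-0.50 ± 0.09, SE, limma adjusted p = 0.005). The other probe sets lay within the background range and differed by 0.10 and 0.08, so the call depends on which is taken. LINC00869 was similar in kind, with -0.18 on its brighter probe set and 0.07 on the other, both within the background range, and it did not pass (limma adjusted p = 0.12), except without the third knockdown array (limma adjusted p = 0.0157). LINC00963 differed by -0.02 on the probe set used and by -0.47 on a dimmer one. In LINC00685, at the ends of X and Y, the probe sets for both copies held identical values.

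Members above 5.0 in 1 group had to differ to enter, and their levels are given with no test. LINC00707, an RNA studied as a microRNA-binding transcript in several carcinomas, read 7.96, 7.41 and 7.50 in controls and 4.004, 3.71 and 4.27 after knockdown. That made it at least 2.54-fold lower, with a log2 difference of -3.63, the lowest of all 89. MRLN (LINC00948) read 6.93, 6.59 and 7.25 against 4.54, 4.45 and 4.31, at least 1.56-fold lower.

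LINC03033 on chromosome 14 read 6.67, 6.83 and 6.61 in controls and 4.52, 4.53 and 4.55 after knockdown, at least 1.34-fold lower. LINC00922 read 6.22, 6.49 and 6.27 against 4.52, 4.57 and 4.74, at least 1.03-fold lower. The knockdown arrays of all these RNAs were within the background range and below every control array. LINC02274, at 5.61, 5.76 and 5.25 against 4.24, 4.54 and 4.73, was within that range in both groups, as was LINC01547 (a difference of -0.22).

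In the other direction, LINC00443 on chromosome 13 read 4.56, 4.11 and 4.49 in controls and 5.48, 5.79 and 5.66 after knockdown, a log2 difference of 1.25. LINC00310 differed by 0.65, LINC00628 by 0.63, LINC00894 by 0.27 and LINC01144 by 0.10. Without the second knockdown array, the highest of its group at 5.24, the difference of LINC01144 turned to -0.0062. All 5 members above 5.0 in the knockdown cells alone were within the background range in both groups, so no fold is given for them.

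Promoters are shown for the members of the largest differences whose start the RefSeq table gave under the same name. That table (GRCh38.p14, 250 bases before to 50 bases after the start of a gene, 27305 genes) held 53 of the 89 members. These stretches were chr14:61570290-61570589 on the plus strand for LINC03033, chr11:33075900-33076199 plus for LINC00294, chr10:132444939-132445238 plus for LINC02870 and chr13:106653630-106653929 plus for LINC00443. Capitals mark CACCTG on either strand, the E-box form that Snail and ZEB repressors bind.
LINC03033: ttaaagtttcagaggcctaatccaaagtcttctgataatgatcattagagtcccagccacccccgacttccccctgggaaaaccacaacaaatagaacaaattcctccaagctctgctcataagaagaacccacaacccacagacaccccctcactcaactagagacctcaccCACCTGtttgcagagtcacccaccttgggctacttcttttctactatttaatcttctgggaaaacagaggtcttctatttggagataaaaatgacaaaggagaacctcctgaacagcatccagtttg
LINC00443: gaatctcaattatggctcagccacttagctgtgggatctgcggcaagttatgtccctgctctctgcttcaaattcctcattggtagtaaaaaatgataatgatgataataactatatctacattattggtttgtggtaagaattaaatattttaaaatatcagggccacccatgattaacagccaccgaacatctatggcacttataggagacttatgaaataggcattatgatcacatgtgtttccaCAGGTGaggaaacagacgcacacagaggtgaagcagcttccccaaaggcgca
LINC00294: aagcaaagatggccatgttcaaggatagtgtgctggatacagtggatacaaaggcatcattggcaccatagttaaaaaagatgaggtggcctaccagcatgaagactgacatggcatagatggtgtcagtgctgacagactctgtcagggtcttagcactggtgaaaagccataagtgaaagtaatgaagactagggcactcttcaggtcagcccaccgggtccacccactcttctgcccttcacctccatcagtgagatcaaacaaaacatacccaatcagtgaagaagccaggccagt
LINC02870: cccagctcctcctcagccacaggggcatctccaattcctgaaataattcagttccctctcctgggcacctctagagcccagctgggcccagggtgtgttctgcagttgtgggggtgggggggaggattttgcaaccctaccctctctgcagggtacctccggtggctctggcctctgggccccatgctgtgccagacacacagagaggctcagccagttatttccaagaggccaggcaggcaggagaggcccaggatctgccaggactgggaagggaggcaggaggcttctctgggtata
The E-box letters stood once in LINC03033, which was dimmer after knockdown, and once in LINC00443, which was brighter. LINC00294, which fell, and LINC02870, which rose, held none of the 4 motifs searched.

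Over all 53 promoters, on both strands, CACCTG was in 19 (35.8%), against 20.6% of all 27305 promoters. TGACTCA, the AP-1 letters, was in 6 (11.3%) against 4.92%, and 3 of those 6 are the near-identical copies LINC01001, LINC01002 and LINC01061 shown next. GGAATG, the TEAD letters, was in 3 (5.66%) against 14%, and TATAAA, the TATA box, in 6 (11.3%) against 12%. These are descriptions of letters in a window, and no binding was measured.

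A family of near-identical copies was among the brightest members, and their promoters are shown to make the likeness of the copies visible. LINC01001 (chr11:131804-132103), LINC01002 (chr19:202160-202459) and LINC01061 (chr4:119410611-119410910), all on the minus strand, have starts that largely match. Capitals mark bases within 20-base words present in all 3, which cover 213 of each 300 bases.
LINC01001: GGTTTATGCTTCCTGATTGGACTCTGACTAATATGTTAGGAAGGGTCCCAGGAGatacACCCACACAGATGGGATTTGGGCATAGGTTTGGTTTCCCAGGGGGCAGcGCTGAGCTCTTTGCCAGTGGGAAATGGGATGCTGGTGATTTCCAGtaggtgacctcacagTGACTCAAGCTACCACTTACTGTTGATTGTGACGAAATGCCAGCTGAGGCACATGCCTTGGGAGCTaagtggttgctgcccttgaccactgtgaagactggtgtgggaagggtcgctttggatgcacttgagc
LINC01002: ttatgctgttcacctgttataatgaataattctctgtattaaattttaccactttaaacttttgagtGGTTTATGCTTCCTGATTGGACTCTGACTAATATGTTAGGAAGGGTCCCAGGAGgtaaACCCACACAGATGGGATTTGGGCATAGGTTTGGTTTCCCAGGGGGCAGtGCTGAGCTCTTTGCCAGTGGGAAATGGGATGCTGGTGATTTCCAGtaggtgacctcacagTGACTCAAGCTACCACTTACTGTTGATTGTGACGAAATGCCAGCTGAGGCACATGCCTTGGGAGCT
LINC01061: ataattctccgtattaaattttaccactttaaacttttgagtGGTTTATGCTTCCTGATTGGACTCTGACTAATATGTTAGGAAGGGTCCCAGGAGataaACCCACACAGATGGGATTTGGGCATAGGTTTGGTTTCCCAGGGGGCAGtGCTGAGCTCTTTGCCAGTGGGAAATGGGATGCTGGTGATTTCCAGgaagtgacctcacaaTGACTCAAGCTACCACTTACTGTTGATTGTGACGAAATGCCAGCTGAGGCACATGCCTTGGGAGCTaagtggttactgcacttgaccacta
Of the 281 words of 20 bases in each, LINC01001 shared 60.9% with LINC01002 and 52.7% with LINC01061, and the latter pair shared 68.3%. The AP-1 letters TGACTCA lay in the shared part of all 3.

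Every knockdown array of these copies was above all 3 controls of the same copy. LINC01001 read 10.56, 10.63 and 10.58 in controls and 11.21, 10.88 and 11.13 after knockdown, a rise of 1.40-fold (limma adjusted p = 0.0045). LINC01002 read 11.12, 11.14 and 11.10 against 11.69, 11.41 and 11.59, a rise of 1.36-fold (limma adjusted p = 0.0031). In both, the second knockdown array was the lowest of its group.

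LINC01061 read 10.34, 10.40 and 10.38 in controls and 10.96, 10.46 and 10.51 after knockdown, so that 1 array carried most of its difference of 0.27 ± 0.13 (SE, limma adjusted p = 0.16). LINC01000 on chromosome 7, another bright member, read 11.44, 11.59 and 11.67 against 12.10, 11.82 and 11.99 and rose 1.32-fold (limma adjusted p = 0.012). Signals of different probe sets are not amounts of RNA, so the order of brightness is not an order of abundance. Whether the probe sets of these copies share probes was not tested, and each copy's value is uncertain for that reason.

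The SEPTIN14 pseudogene copies behaved alike in direction and passed unevenly. LINC00266-1 read 7.36, 7.46 and 7.23 in controls and 7.81, 7.53 and 7.86 after knockdown (0.38 ± 0.10, SE, limma adjusted p = 0.025). LINC00266-3 differed by 0.35 ± 0.12 (SE, limma adjusted p = 0.076) and LINC00266-4P by 0.17 ± 0.10 (SE, limma adjusted p = 0.25), and neither passed. LINC00266-4P is placed on chromosome Y, and this line is from an ovarian carcinoma, so its signal is not read as RNA of that locus. Whether its probe set reads RNA of the other copies was not tested.

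**Figure D3:**
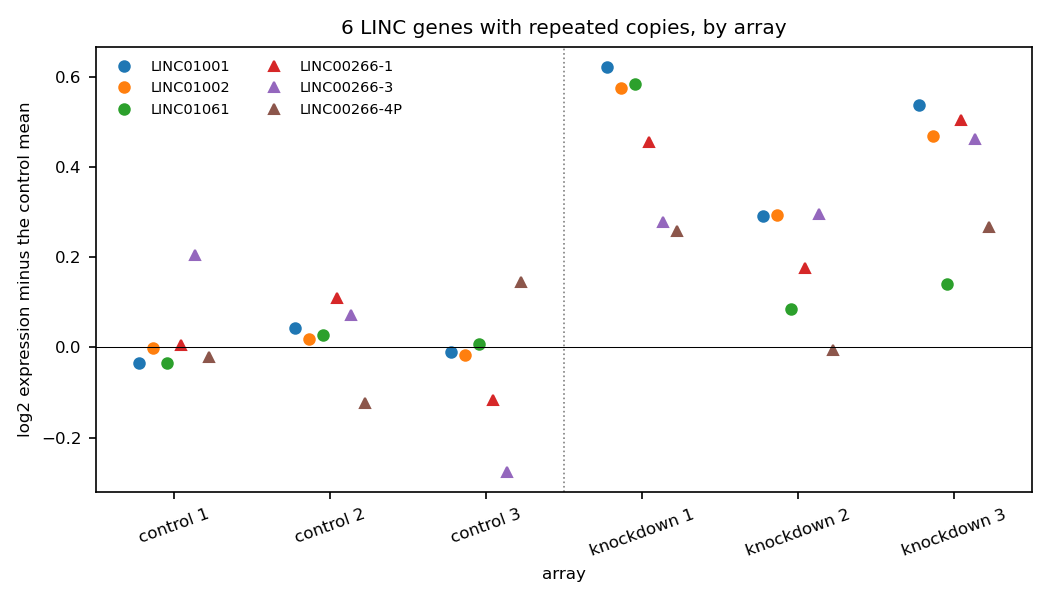
Log2 expression on each array minus the mean of the 3 controls, for 6 members that belong to families of copies (LINC01001, LINC01002, LINC01061 and the 3 LINC00266 copies). Points are genes, and LINC01001 and LINC01002 were higher in all 3 knockdown arrays than in any control, while 2 of the 3 LINC01061 knockdown arrays lay close to the controls.

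Members and their neighbours along the chromosome shared a sign in close to an even split. For each member, the flank was the median log2 difference of up to 5 measured genes on each side, LINC genes left out. The member and its flank had the same sign for 46 of 89 members, 39 of the 78 above 5.0 in both groups and 270 of all 542 LINC genes. LINC00624 lies between CHD1L, a chromatin remodeller that fell by 0.74, and BCL9, a Wnt coactivator with a difference of 0.14. LINC00958 lies beside TEAD1, the Hippo pathway transcription factor, which fell by 0.61 ± 0.04 (SE, limma adjusted p = 5.6e-05) while LINC00958 rose.

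LINC02870 lies between PWWP2B, which rose by 0.54, and the inositol phosphatase gene INPP5A, which fell by 1.18. LINC00620 lies between FBLN2, an extracellular matrix gene that fell by 0.71, and the ligand gene WNT7A, which rose by 0.71. Neither PWWP2B (means of 5.26 in controls and 5.80 after knockdown) nor FBLN2 (4.86 and 4.15) exceeded the background range. Around LINC00707, PRKCQ-AS1 differed by -0.09 and SFMBT2 by 0.06, and neither passed. LINC00534 lies beside CALB1, the calcium-binding protein calbindin, which rose by 0.38.

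LINC03033 had both neighbours lower, at means that did not exceed the background range. They were PRKCH, the protein kinase C eta gene (-0.90 ± 0.07, SE, limma adjusted p = 5.4e-05), and HIF1A-AS1 (-0.84 ± 0.17, SE, limma adjusted p = 0.0076). PRKCH read 5.88 in controls and 4.99 after knockdown, HIF1A-AS1 4.46 and 3.62, and the flank median was -0.87. LINC00922 lies between CDH11, a mesenchymal cadherin gene that fell by 1.07, and RNA5SP428 (0.03), with a flank median of -0.002. CDH11 also stayed at background level, at 5.43 in controls and 4.37 after knockdown. MRLN lies between the transporter gene SLC16A9, which fell by 1.81, and ANK3 (0.05), with a flank median of -0.139. SLC16A9 was at or below 6.28 as well, at 6.21 in controls and 4.40 after knockdown. LINC00443 lies between the splicing gene ARGLU1, which rose by 0.80, and ATP5G1P5 (0.06), with a flank median of 0.064. LINC00628 lies inside PLEKHA6, a cell junction protein gene that rose by 1.01, beside PPP1R15B, which rose by 0.26, and its flank median was 0.003. Whether one transcript reaches into the other was not tested.

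**Figure D4:**
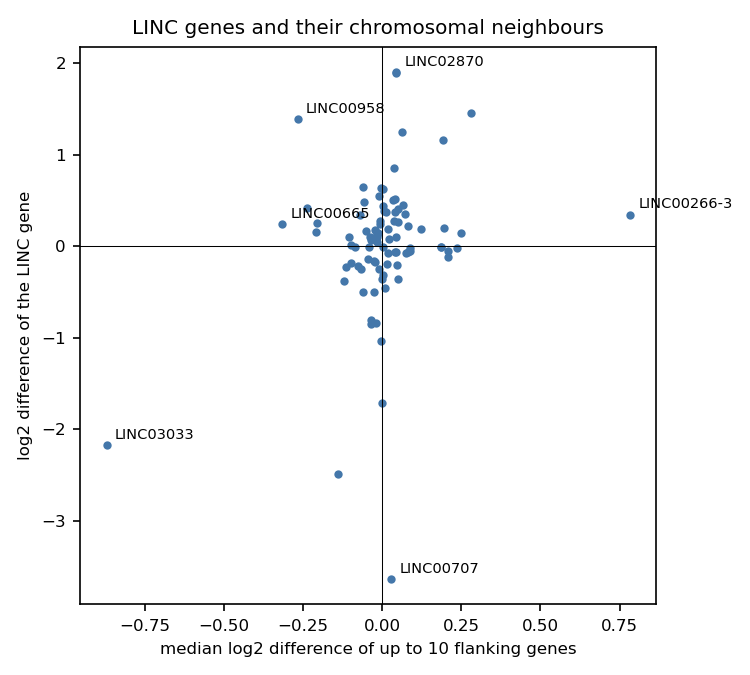
Log2 difference of each member against the median log2 difference of its flanking measured genes. LINC03033 is at -2.17 with a flank of -0.87, while LINC00958 is at 1.39 with a flank of -0.27.

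By chromosome, the counts were small and the chromosomes were picked after their values were seen. On chromosome 7 all 7 members had a difference above 0 and 4 (57.14%) were called, all of them higher. Among genes other than LINC above 5.0 in both groups, 52.2% were called either way and 27.4% higher. The 4 were LINC01004, LINC01000, LINC00265 (0.37, limma adjusted p = 0.011) and LINC03009 (0.23, limma adjusted p = 0.018). They were also the 4 called among all 16 LINC genes of chromosome 7, of which 13 had a difference above 0 and 3 below. On chromosome 13 the median of 8 members was 0.144, beside 0.001 over all 74 LINC genes of that chromosome. On chromosome 14 the median of 4 members was -0.441, beside 0.015 over all 38. The values farthest from 0 there were those of members above 5.0 in 1 group alone, whose direction was fixed by the choice: LINC03033 and LINC02274 on chromosome 14 and LINC00443 on chromosome 13. Of 7 members within 5 measured genes of a chromosome end, 5 were the copies LINC01001, LINC01002, LINC00266-1, LINC00266-3 and LINC00266-4P, and whether their probe sets share probes was not tested.

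Of 20 LINC names listed for their use in cancer work, 8 were members. LINC00152, now CYTOR and known for acting on the cytoskeleton, read 7.22, 7.25 and 7.19 in controls and 7.57, 7.37 and 7.53 after knockdown and rose 1.20-fold (limma adjusted p = 0.016). LINC00665 read 7.74, 7.84 and 7.67 against 7.98, 7.94 and 8.05 and rose 1.18-fold (limma adjusted p = 0.021), while its flank median was -0.315. Calls of both were lost without the third control (limma adjusted p = 0.059 and 0.0718) or the third knockdown array (0.0539 and 0.0681), and that of LINC00665 also without the first control (0.0642). LINC00941 read 10.00, 9.79 and 9.58 against 9.71, 9.79 and 9.67, overlapping between groups, and did not pass (-0.07 ± 0.10, SE, limma adjusted p = 0.70). Of the listed members described above, LINC00958, LINC00472 and LINC00467 rose and LINC00662 fell. The direction of LINC00707 was fixed by the choice of members, so nothing is read from it. LINC00511, LINC00473, LINC00520, LINC00460, LINC00261 and LINC01234 were measured at or below 5.0 in both groups, while LINC00657, now NORAD, and LINC00704, now MANCR, were measured under those names and are no members. The other 4 listed names matched no gene here.

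Long noncoding RNAs without a LINC number were set beside the members. Of 55 listed, 30 were measured, of which 5 rose and 5 fell, with a median of -0.035. That was 33.33% called, near the 31.9% of all genes. Among the 17 above 5.0 in either group, 41.18% were called, beside 53.6% of genes other than LINC at that level. The counts are no result about the list. UCA1, a transcript known from urothelial carcinoma, fell 50.3-fold, from 14.59, 14.64 and 14.63 in controls to 8.85, 8.85 and 9.20 (-5.65 ± 0.10, SE, limma adjusted p = 1.9e-07). FTX, a transcript of the X-inactivation centre, rose 1.68-fold (limma adjusted p = 0.00081), and NORAD, which binds Pumilio proteins, rose 1.31-fold (limma adjusted p = 0.003). DANCR (-0.47) and TP53TG1 (-0.38) fell within the background range.

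Of 43 measured genes, from 46 listed, for proteins that process or degrade noncoding transcripts, 9 rose and 5 fell, with a median of 0.016. INTS6, an Integrator subunit, rose 1.75-fold, from 8.29, 8.33 and 8.21 to 9.04, 9.08 and 9.13 (0.81 ± 0.05, SE, limma adjusted p = 3.3e-05). The cytoplasmic exonuclease XRN1 rose by 0.49 (limma adjusted p = 0.00017) and the nonsense-mediated decay factor UPF2 by 0.53 (limma adjusted p = 0.00042). PABPN1, the nuclear poly(A)-binding protein that marks transcripts for the exosome, fell by 0.53 (limma adjusted p = 0.00021). All 43 were above 5.0, and the 32.56% called was below the 52.2% to 53.6% of other genes at that level, a difference that was not tested.

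**Figure D5:**
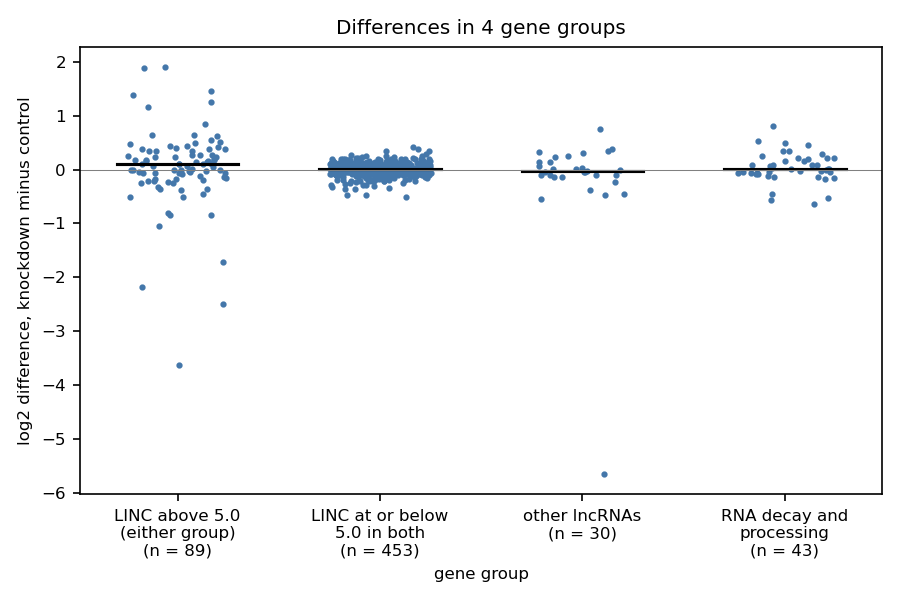
Log2 difference (knockdown minus control) of each gene in 4 groups: the 89 members, the 453 LINC genes at or below 5.0 in both groups, 30 other long noncoding RNAs and 43 RNA decay and processing genes. Points are genes and bars are medians, at 0.095, 0.010, -0.035 and 0.016, and the lowest point is UCA1 at -5.65.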

How the data were processed

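Total RNA of 6 SKOV3 samples was hybridised to single-colour Affymetrix arrays. The authors deposited a log2 expression value for each probe set, and RMA, which corrects background, normalizes and summarises probes, is named without a version per the submitters' processing notes. They were kept as deposited, with array medians of 4.13 to 4.19 and values from 1.85 to 19.93, the upper end of which lies above a scanner's own range, so fold sizes depend on that scale. Scanner files and scan batches were not examined. The number of arrays limits the precision.

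Of 70523 probe sets, 23781 carried 1 gene symbol in GEO's platform annotation, 1543 several and 45199 none. Updating through Entrez identifiers, of which 21497 matched RefSeq, changed 0 symbols. SND1 was kept although its probe set carries a second symbol. A further 23 LINC probe sets with several symbols were left out. The brightest probe set stood for each of 479 genes with several, which gave 22466 genes.

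A linear model per gene (limma 3.58.1, lmFit then eBayes, R 4.3.3) gave the differences, knockdown minus control, with no filter or covariate. Its 2-sided p-values were corrected over the whole table by Benjamini-Hochberg. The fit alone, and no other step, was run on simulated arrays with 200 changed genes in each draw, far fewer than were called here. There 65% of log2 differences of 0.5 were called, and 4.61% of calls were false. An adjusted p is given only for members above 5.0 in both groups. Named genes followed a rule: SND1, the 10 members that rose most and the 10 that fell most among those called without overlap, up to 5 members in each direction above 5.0 in 1 group, the 5 brightest, members whose probe sets differ in sign, 20 listed LINC names, the nearest measured gene on each side, and up to 4 genes of each list. NORAD, LINC00963, LINC00685, members named with the RefSeq records or as called beyond the rule, the chromosomes and the families of copies fall outside it and were chosen after their values were seen, as was the background rule for folds. The members and lists were chosen with earlier results of these data known.

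Sequences are from RefSeq (GRCh38.p14). Since no source used here names the build of the array's coordinates, gene order alone was used. Genes placed on alternate contigs may remain in the flanks, as may be the case for LILRA3 beside LINC01002. Their effect on the flank medians and signs was not tested. Alternatives changed the membership level, probe set rule, normalization, filter, variance model and block, and left out each array.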

Additional observations from a re-analysis of the deposited data

How the results depend on the processing

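Counts of members called ranged from 21 to 30 higher (28 as reported) and from 12 to 16 lower (16) over all alternatives, and the median difference from 0.048 to 0.16. Without 1 array in turn, 23 to 29 were higher and 14 to 16 lower. Over all 542 LINC genes, a fit on all probe sets gave 22 higher and 18 lower, beside 42 and 30, where more features were tested, and a filter on low signal gave 19 lower, where fewer were. Leaving out 1 array gave 28 to 43 higher and 22 to 28 lower. With the level set at the highest background mean, 52 members remained and 28 shared the sign of their flank. LINC02210 turned to 0.08 (limma adjusted p = 0.742) with the median of its probe sets, and LINC01144, without 1 array in turn, ran from -0.0062 (without the second knockdown array) to 0.1503. In the fit on all probe sets the calls of LINC03124 (limma adjusted p = 0.117), LINC00152 (0.0606) and LINC00665 (0.0781) were lost. Of 26 named genes called above 5.0 in both groups, SND1 included, 22 kept their direction and call under every alternative run on single genes. Of 10 named members above 5.0 in 1 group, which carry no call, 9 kept their direction. LINC00941, not called, turned to 0.0358 without the first control. Replicate numbers did not pair the samples, since deviations of same-numbered arrays correlated at -0.02, -0.036 and -0.062. The replicate block gave 24 members higher and 15 lower, and over all LINC genes 30 and 24. Restriction to the 79 members with a LINC record, chosen after seeing the data, gave 22 higher and 15 lower. With 37 members within the background range, differences at low signal are the least certain.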
